A study of Mus musculus with 17 samples.

Results

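The genes described here are 10 genes that mark fibroblasts and myofibroblasts: Acta2, Tagln, Fap, Pdgfra, Pdgfrb, Pdpn, Thy1, Dpt, Dcn and Lum. They were chosen by symbol in Gencode vM21, and all 10 were found among the 55450 genes of the count table. RNA was sequenced from AB12 tumors, a mesothelioma line of BALB/c mice that was injected into the peritoneum of 8-week-old female BALB/c mice. Untreated tumors were collected at day 6 (d6, n = 3), day 10 (d10, n = 5) and day 14 (d14, n = 3), and tumors of mice given 200 µg injections of the CTLA-4 blocking antibody clone 9D9 were collected at d10 (n = 3) and d14 (n = 3). For the treated d14 tumors the study gave the antibody at d6 and d10, while the labels of the treated d10 tumors name the antibody and the day of collection only. The untreated groups are labelled untreated, and no isotype antibody is named for them. The study's methods state independent mice within each group, while the labels give a replicate number and no mouse.

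Fibroblasts build the connective tissue frame of a tumor, and when activated they can become myofibroblasts that contract and lay down matrix. The serosal surfaces on which mesothelioma grows hold resident fibroblasts beneath the mesothelial layer, and mesothelial cells themselves can express some fibroblast genes. None of the 10 genes belongs to fibroblasts alone, since pericytes and smooth muscle also carry the contractile genes and T cells carry Thy1. The RNA also holds that of the AB12 cells, a line the study calls biphasic, and their part in these levels was not tested. In bulk RNA, fewer cells of a type and less RNA per cell cannot be told apart.

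Depth and library facts that bear on all results are few. Total counts lay between 46371577 and 96759833 per library. The study used 2 sequencing instruments with different read lengths and named a batch effect between sequencing projects, and since the project of each library is not given here, batch and group cannot be told apart. The untreated d10 tumors fell into unlike parts: between replicates 4 and 5 and replicates 1 to 3, 7.89% of all 17321 genes tested were called, a contrast fitted after seeing the data, but 0 of the 9 tested fibroblast genes were called by edgeR, 2 had an unadjusted p under 0.05, and 0 were called by DESeq2. In the treated d14 tumors, the summed level of 5 pancreas acinar genes was 2786 CPM (counts scaled to library size, with TMM normalization) in replicate 1, 1.26 CPM in replicate 2 and 952 CPM in replicate 3, against at most 0.319 CPM in the other 14 libraries, and all 4 of the list's tested genes (Ctrb1, Cela2a, Cpa1 and Prss2) were called higher than in untreated d14 tumors, as were Ctrb1, Cpa1 and Prss2 against untreated d10 tumors. For the fibroblast genes the d14 treatment difference is therefore also given from replicate 2 alone. Such values are not given here for the other gene lists, whose d14 treatment differences rest on all 3 treated tumors.

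In the untreated tumors the contractile genes Acta2 and Tagln were highest at d6 and lowest at d14, Pdgfra and Thy1 rose from d6 to d10, and Thy1, Dpt and Tagln fell from d10 to d14, a step at which the fitted values of all 9 tested genes were below 0. Under anti CTLA-4 at d14, Pdgfra, Thy1, Dpt, Dcn and Lum were higher than in untreated d14 tumors by 1.21 to 1.61 on the log2 scale, while the values of Acta2, Tagln, Fap and Pdgfrb lay between 0.39 and 0.74 and were not called. At d10 all 9 tested genes had lower fitted values in treated than in untreated tumors, and none of these differences passed the test.

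The counts of genes called, with a call set at an adjusted p under 0.05 and an absolute log2 fold change over 1 in edgeR's quasi-likelihood test, were as follows. Of the 9 tested genes, 3 were called between d6 and d10, where 7.45% of all genes tested were called. Of these, 2 were higher (4.79% of all genes) and 1 was lower (2.66%). From d10 to d14, 3 of 9 were called against 7.23% of all genes, all of them lower, which 3.45% of all genes were. Without untreated d14 replicate 2, only 1 was called. Shares of all genes are given here for fits with every tumor of the compared groups, and not for fits that leave tumors out. From d6 to d14, 5 of 9 were called against 19% of all genes, 1 higher (10.2% of all genes) and 4 lower (8.81%). Between treated and untreated d14 tumors 5 of 9 were called, all higher, against 11.5% of all genes called and 9.07% called higher. Without untreated d14 replicate 2, 3 were called. With treated d14 replicate 2 as the only treated tumor, an alternative added after seeing the data, 0 were called by edgeR (adjusted p of the 5 genes 0.0965 to 0.17), in a fit that takes the lone tumor to vary like the untreated ones, and their log2 fold changes were 1.29 to 1.72. The values of the 4 genes not called were 1.06 for Pdgfrb (adjusted p = 0.0965), 0.64 for Acta2 (0.114), 0.62 for Tagln (0.276) and 0.61 for Fap (0.207). In that tumor all 5 called genes were above every untreated d14 tumor.

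Treated d14 tumors set against untreated d10 tumors gave 0 of 9 called by edgeR, with 5 at an unadjusted p under 0.05 and 0 called by DESeq2, where 7.83% of all genes were called. It gave 1 call without untreated d10 replicate 2 and 1 without treated d14 replicate 3. Treated against untreated d10 tumors gave 0 of 9 called, with 5 at an unadjusted p under 0.05 and 0 called by DESeq2, where 0.0174% of all genes were called. Without untreated d10 replicate 5, 2 of 9 were called, and the share of all genes called in that fit is not given here. In the test of whether the treatment difference at d14 differed from that at d10, 5 of 9 genes were called, against 11.8% of all genes. All 5 had the higher treated minus untreated value at d14, a direction in which 9.67% of all genes were called. The comparisons share groups: the untreated d10 tumors enter 5 of the 7 and the untreated d14 tumors 4.

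**Figure D1:**
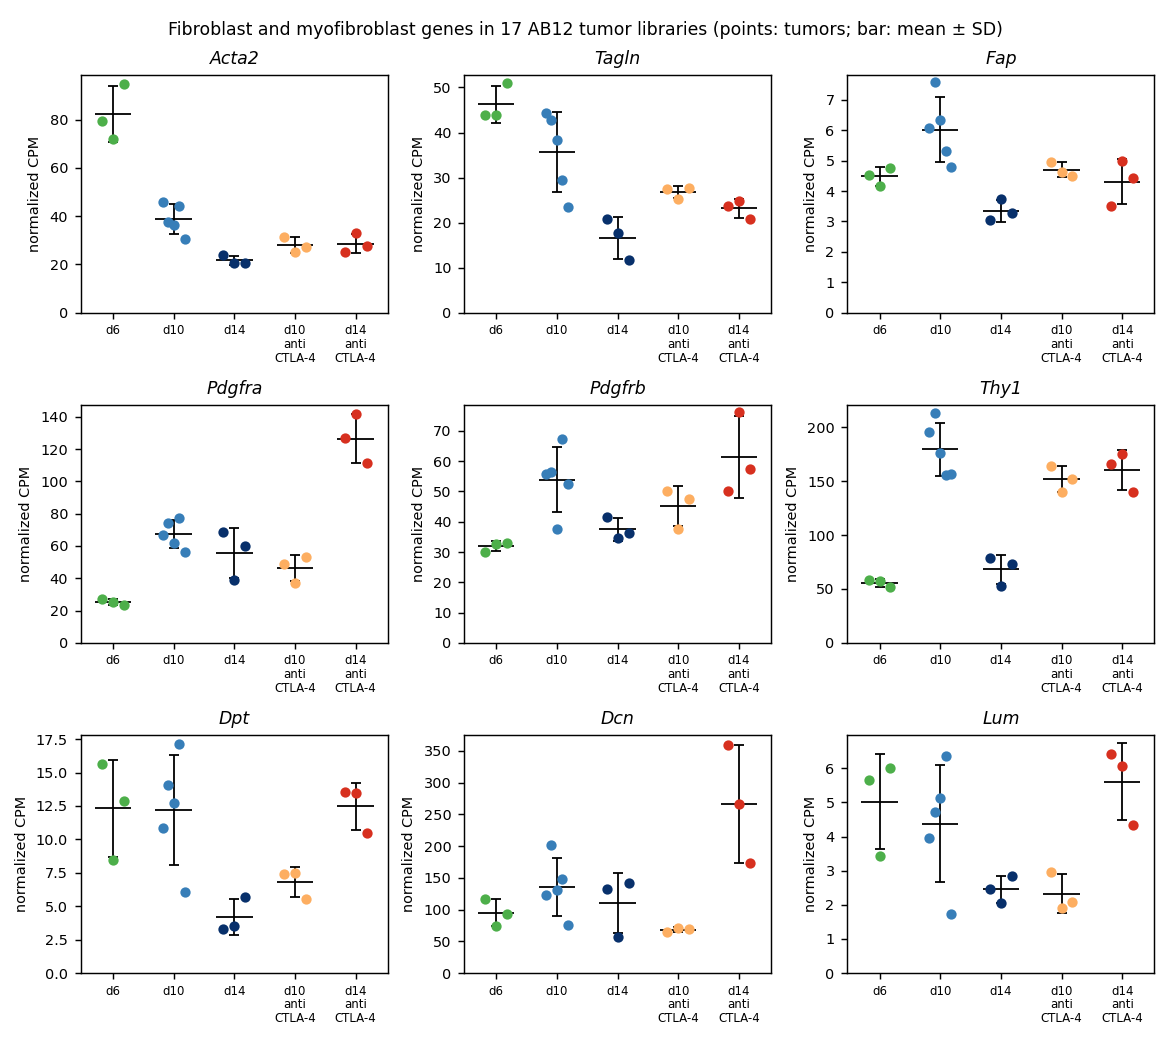
Normalized CPM of the 9 tested genes (y axes, linear, from 0) in each of 17 tumors, by group; points are tumors, and bars are the mean with its SD. Acta2 falls from 72.2 CPM or more in every d6 tumor to at most 23.8 CPM in untreated d14 tumors. Pdgfra is at 111 CPM or more in all treated d14 tumors.

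Compared per length, as mean CPM per kilobase of exon over the 17 libraries, Thy1 had the highest mean at 43.3 ± 18.4 (SD, n = 17 tumors). Dcn followed at 23.1 ± 13.7, Acta2 at 18.1 ± 9.98 and Tagln at 15.3 ± 5.72. The place of Tagln is uncertain, since 62.4% of its exon bases are shared with an antisense gene and strand use in counting is not given. Pdgfrb at 8.56 ± 2.40, Pdgfra at 6.44 ± 3.41 and Dpt at 5.74 ± 2.49 lay below them, and Lum at 1.64 ± 0.696 and Fap at 0.838 ± 0.203 were low. All SDs here span the 5 groups, and the order differed between groups: at d6 the means per kilobase were 37.5 for Acta2, 23.3 for Tagln, 18.6 for Thy1 and 16.3 for Dcn.

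Acta2 encodes smooth muscle actin alpha, the actin of contractile cells and the usual myofibroblast marker, and lies on chromosome 19 (34241090 to 34255590, minus strand, GRCm38). Its level was 79.6, 72.2 and 95.0 CPM in the 3 d6 tumors, 45.8, 37.6, 36.5, 44.3 and 30.7 CPM in the 5 untreated d10 tumors, and 23.8, 20.6 and 20.5 CPM in the 3 untreated d14 tumors. The 3 untreated groups do not overlap, and each later group lies below the one before. The fitted log2 fold change between d6 and d10 was -1.06 ± 0.14 (SE) (adjusted p = 0.0013, edgeR) and -0.85 ± 0.14 from d10 to d14 (adjusted p = 0.0073), the second of which does not reach the fold set for a call. From d6 to d14 it was -1.91 ± 0.12 (adjusted p = 2.6e-05). Without d6 replicate 3, or without untreated d10 replicate 5, the d6 to d10 value was -0.93 or -0.99 and no longer called.

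With anti CTLA-4, Acta2 was at 31.6, 25.0 and 27.2 CPM at d10 and at 25.3, 32.8 and 27.5 CPM at d14. All 3 treated d14 tumors were above the 3 untreated d14 tumors, by 0.43 ± 0.12 on the log2 scale (adjusted p = 0.028, below the fold set for a call), and the treated d10 tumors overlapped the untreated ones, with a log2 fold change of -0.48 ± 0.14 (adjusted p = 0.25). The order of group means was d6, untreated d10, treated d14, treated d10 and untreated d14. Treated d14 tumors overlapped both untreated and treated d10 tumors, and the other neighbours in this order did not overlap.

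The window from 250 bases before to 50 bases after the Acta2 start, chr19:34255324-34255623 on the minus strand (RefSeq, GRCm38.p6), is printed because Acta2 was lower in each later untreated group, with no overlap between them. Capitals mark the matches, with at most 1 mismatch, to the CArG box, the motif bound by serum response factor (SRF). Letting 1 mismatch pass was decided after the full motif was not found and this window had been read.
Acta2: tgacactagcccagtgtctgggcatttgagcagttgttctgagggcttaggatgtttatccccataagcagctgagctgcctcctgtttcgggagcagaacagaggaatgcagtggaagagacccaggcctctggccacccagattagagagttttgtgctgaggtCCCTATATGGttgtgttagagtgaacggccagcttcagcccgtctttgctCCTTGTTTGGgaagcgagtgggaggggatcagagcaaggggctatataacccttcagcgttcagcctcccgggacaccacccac
Both matches differ from the full motif at 1 position, and a full match was not found in this window on either strand. Of 32851 promoter windows of the same length, 21.1% hold a match with at most 1 mismatch and 1.63% a full match. The windows of Pdgfra, Dpt and Pdpn, the other 3 genes with an entry, held neither. Those of Pdgfra (chr5:75152001-75152300, plus strand) and Dpt (chr1:164796413-164796712, plus strand) are given because both genes were called higher in treated d14 tumors.
Pdgfra: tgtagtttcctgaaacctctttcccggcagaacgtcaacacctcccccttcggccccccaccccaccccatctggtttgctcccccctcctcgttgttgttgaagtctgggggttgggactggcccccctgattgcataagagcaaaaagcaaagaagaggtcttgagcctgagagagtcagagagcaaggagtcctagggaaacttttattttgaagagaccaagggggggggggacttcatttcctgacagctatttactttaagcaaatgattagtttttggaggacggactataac
Dpt: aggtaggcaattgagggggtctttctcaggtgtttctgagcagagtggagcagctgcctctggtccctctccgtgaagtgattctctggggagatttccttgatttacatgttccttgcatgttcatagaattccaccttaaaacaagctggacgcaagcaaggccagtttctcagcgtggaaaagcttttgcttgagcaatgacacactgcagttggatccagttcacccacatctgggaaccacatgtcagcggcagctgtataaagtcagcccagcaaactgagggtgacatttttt

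Tagln encodes transgelin, an actin-binding protein of smooth muscle and myofibroblasts, and lies on chromosome 9 (45929619 to 45936058, minus strand). An antisense gene, Gm48529, covers 62.4% of its exon bases on the opposite strand and Pcsk7 another 5.43%. The sources used here do not say whether counting used strand. How reads in these shared bases were counted is therefore not known, and the counts of Tagln may be affected. Over all libraries Tagln had 34661 counts and Gm48529 had 3252. Its level was 44.0, 43.8 and 50.9 CPM in d6 tumors, 44.3, 42.8, 38.3, 29.5 and 23.5 CPM in untreated d10 tumors and 20.7, 17.6 and 11.6 CPM in untreated d14 tumors. The d6 and d10 tumors overlapped and all d14 tumors were below both. Between d6 and d10 the fitted log2 value was -0.35 ± 0.19 (adjusted p = 0.24, edgeR). The log2 fold change was -1.10 ± 0.25 from d10 to d14 (adjusted p = 0.017) and -1.46 ± 0.20 from d6 to d14 (adjusted p = 0.00042).

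Within the untreated d10 tumors, replicates 4 and 5 had less Tagln than replicates 1 to 3, by 0.67 ± 0.13 on the log2 scale. This value was below the fold for a call. The split was made after seeing the data, so its adjusted p (0.013, edgeR) is a description only. Set against untreated d10 replicates 4 and 5 alone, the d14 difference was -0.68 and was not called (adjusted p = 0.073). It was also not called without d14 replicate 2 (-1.15, adjusted p = 0.072) or without d14 replicate 3 (-0.89, below the fold). Treated tumors had 27.4, 25.2 and 27.8 CPM at d10 and 23.8, 24.8 and 20.9 CPM at d14. The treated d14 tumors lay just above the untreated d14 tumors, by 0.51 ± 0.20 on the log2 scale (adjusted p = 0.083).

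Pdgfra and Pdgfrb encode the 2 receptor tyrosine kinases for platelet-derived growth factors. Pdgfra marks many fibroblasts and Pdgfrb fibroblasts and pericytes. Pdgfra (chromosome 5, 75152292 to 75198215, plus strand) overlaps Gm42802, Gm42803 and Mir7025, which had 4 to 18 counts over all libraries. It was at 27.2, 25.3 and 23.2 CPM at d6. Untreated d10 tumors had 66.7, 74.3, 61.7, 77.1 and 56.3 CPM, and untreated d14 tumors 68.8, 38.8 and 59.9 CPM. Treated tumors had 49.1, 37.3 and 52.9 CPM at d10 and 127, 141 and 111 CPM at d14. All d6 tumors were below every other tumor and all treated d14 tumors were above every other tumor, a 5.01-fold range between the highest and lowest group mean.

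Pdgfra rose between d6 and d10 by 1.44 ± 0.12 on the log2 scale (adjusted p = 0.00016, edgeR) and between d6 and d14 by 1.16 ± 0.19 (adjusted p = 0.0010), the latter 0.99 and short of the fold without d14 replicate 1. From d10 to d14 it was -0.27 ± 0.18 (adjusted p = 0.30), with overlapping groups. Treated d14 tumors were higher than untreated d14 tumors by 1.21 ± 0.21 (adjusted p = 0.0074). Without untreated d14 replicate 2, whose 38.8 CPM was the lowest of its group, the difference was 0.99 and just short of the fold for a call. From treated replicate 2 alone it was 1.37 (adjusted p = 0.11 in a fit that takes the lone tumor to vary like the untreated ones).

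At d10 the 3 treated tumors all had less Pdgfra than the 5 untreated ones, with a log2 fold change of -0.53 ± 0.14 that did not pass the test (adjusted p = 0.22). The treatment difference at d14 exceeded that at d10 by 1.73 ± 0.26 (adjusted p = 0.0027). Treated d14 tumors were also 0.87 ± 0.12 above untreated d10 tumors on the log2 scale (adjusted p = 0.0024, below the fold for a call).

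Pdgfrb (chromosome 18, 61045150 to 61085061, plus strand) varied less. It was at 30.0, 32.6 and 33.0 CPM at d6, at 55.9, 56.6, 37.6, 67.2 and 52.5 CPM in untreated d10 tumors, and at 41.7, 34.6 and 36.3 CPM in untreated d14 tumors. Treated tumors had 50.3, 37.8 and 47.6 CPM at d10 and 50.1, 76.3 and 57.3 CPM at d14. All d6 tumors were again below every other tumor, while d10 and d14 untreated tumors overlapped. Differences from d6 to d10 (0.78 ± 0.16, adjusted p = 0.0098, edgeR) and between treated and untreated d14 tumors (0.74 ± 0.16, adjusted p = 0.014) passed the p threshold and not the fold.

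The genes of the PDGF ligands, Pdgfa, Pdgfb, Pdgfc and Pdgfd, gave no calls. In each of the 7 comparisons edgeR and DESeq2 called 0 of the 4, and between 0 and 4 had an unadjusted p under 0.05. Between treated and untreated d14 tumors their log2 fold changes went both ways, from -0.38 to 0.81. The median was 0.46, beside 0.00 for all genes tested. The summed level of the 4 ligand genes was 67.7 to 82.9 CPM at d6, 81.4 to 98.7 CPM in untreated d10 tumors and 74.7 to 80.4 CPM in untreated d14 tumors. In treated tumors the sum was 86.5 to 96.8 CPM at d10 and 84.0 to 89.0 CPM at d14.

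Fap encodes fibroblast activation protein, a surface protease of activated fibroblasts, and lies on chromosome 2 (62500943 to 62574075, minus strand). Its level was 4.54, 4.15 and 4.76 CPM at d6, 6.06, 7.60, 6.34, 5.33 and 4.78 CPM in untreated d10 tumors and 3.04, 3.74 and 3.27 CPM in untreated d14 tumors. All d14 tumors were below all d10 and d6 tumors, with a log2 fold change from d10 to d14 of -0.85 ± 0.19 (adjusted p = 0.016, edgeR) that stayed under the fold for a call. Treated tumors had 4.97, 4.63 and 4.49 CPM at d10 and 3.52, 4.98 and 4.41 CPM at d14, and the treated d14 tumors overlapped the untreated ones (0.39 ± 0.18, adjusted p = 0.13). Fap was the tested gene with the smallest spread between groups, with a 1.80-fold range of group means.

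Thy1 encodes CD90, a surface glycoprotein of fibroblasts that mouse T cells carry as well, and lies on chromosome 9 (44043384 to 44048579, plus strand). It was at 58.6, 57.1 and 51.7 CPM at d6, at 196, 213, 176, 156 and 157 CPM in untreated d10 tumors, and at 78.2, 52.3 and 73.5 CPM in untreated d14 tumors. Treated tumors had 164, 140 and 152 CPM at d10 and 166, 175 and 140 CPM at d14. The tumors fell into a low set, made of all d6 and untreated d14 tumors at 78.2 CPM or less, and a high set at 140 CPM or more.

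Thy1 rose between d6 and d10 by 1.71 ± 0.13 on the log2 scale (adjusted p = 9.3e-05, edgeR) and its log2 fold change between d10 and d14 was -1.40 ± 0.16 (adjusted p = 0.0042). Between d6 and d14 it was 0.30 ± 0.14 (adjusted p = 0.098). Treated d14 tumors were higher than untreated d14 tumors by 1.27 ± 0.17 (adjusted p = 0.0049), and by 1.40 from treated replicate 2 alone (adjusted p = 0.0965). The treatment difference at d14 exceeded that at d10 by 1.50 ± 0.21 (adjusted p = 0.0025).

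The summed level of 9 T cell markers was lower in the d6 and untreated d14 tumors than in all others, while single markers differed. It was 76.8 to 82.8 CPM at d6, 275 to 370 CPM in untreated d10 tumors and 108 to 200 CPM in untreated d14 tumors, and 253 to 298 CPM and 287 to 328 CPM in treated d10 and d14 tumors. From d6 to d10, 6 of 9 were called higher, and from d10 to d14, 6 of 9 lower, with Cd8b1 at 3.25 and Cd8a at 3.19 as the largest rises and Cd2 at -1.63 and Cd8b1 at -1.41 as the largest falls. Cd4 did not follow the sum: it was at 9.11 to 10.8 CPM at d6, 5.68 to 10.1 CPM in untreated d10 tumors and 4.57 to 5.17 CPM in treated d10 tumors, and was called lower at d14 than at d6 (-1.59, adjusted p = 0.00114, edgeR), where Cd8a, Cd8b1, Cd3g and Cd3e were called higher. In the treatment difference at d14 minus that at d10, 7 of 9 were higher, led by Cd4 (2.14) and Cd2 (1.99). In treated d14 tumors 4 of 9 were called higher than in untreated ones: Cd4, Cd5, Cd2 and Cd8b1. Their part in the level of Thy1 was not tested. The genes whose levels were most like Thy1 over the 17 libraries were Cst7 (r = 0.981), Id2 (r = 0.973) and Cd247 (r = 0.967), the last of which encodes the zeta chain of the T cell receptor complex.

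**Figure D2:**
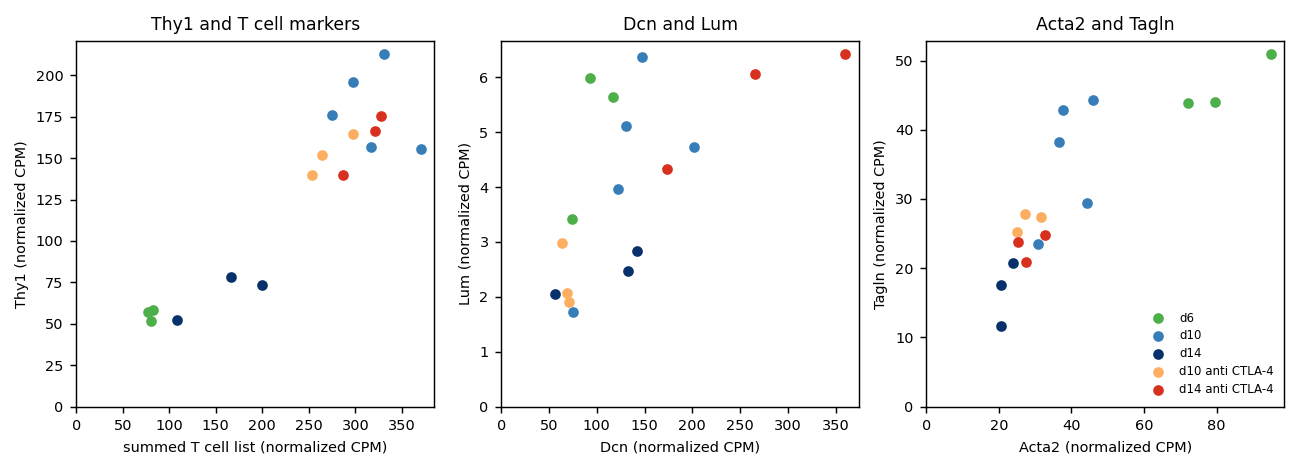
Normalized CPM of pairs of measures in the 17 tumors, colored by group: Thy1 against the summed T cell markers, Lum against Dcn, and Tagln against Acta2 (all axes linear, from 0). In the first panel the d6 and untreated d14 tumors lie at or below 78.2 CPM of Thy1 and 200 CPM of T cell markers, and all others lie above both.

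Pdpn encodes podoplanin, a mucin-type glycoprotein of fibroblasts, mesothelium and lymphatic endothelium, and lies on chromosome 4 (143267431 to 143299564, minus strand). It is listed with 1 count each in untreated d14 replicate 3 and in treated d14 replicates 2 and 3, and with 0 counts in the other 14 libraries. A floor of 3 counts corresponds to between 0.031 and 0.0647 CPM in these libraries, for counting error only. Genes that most cells use were also at or near 0 in this table: Mat2a had 5 counts over all libraries, Men1 had 1, Lats1 had 2, and Nup43 had 0 (chosen after their values were seen). No annotated gene overlaps Pdpn, Men1 or Lats1. Pdpn is therefore given as listed, was not tested, and enters no comparison.

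Dpt encodes dermatopontin, a matrix protein that binds decorin and marks resident fibroblasts of many tissues, and lies on chromosome 1 (164796644 to 164824266, plus strand), where Gm32569 overlaps it outside its exons. It was at 15.6, 8.47 and 12.9 CPM at d6, at 10.9, 14.1, 12.7, 17.1 and 6.04 CPM in untreated d10 tumors and at 3.30, 3.55 and 5.71 CPM in untreated d14 tumors. Treated tumors had 7.42, 7.48 and 5.55 CPM at d10 and 13.5, 13.5 and 10.5 CPM at d14. All untreated d14 tumors were below all d6, untreated d10 and treated d14 tumors, and the d6 and d10 untreated tumors overlapped fully.

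The log2 fold change of Dpt was -1.54 ± 0.32 from d10 to d14 (adjusted p = 0.014, edgeR) and -1.54 ± 0.28 from d6 to d14 (adjusted p = 0.0018). The first was not called without d14 replicate 1 (-1.40, adjusted p = 0.057) or without d14 replicate 2 (-1.44, adjusted p = 0.076). Treated d14 tumors were higher than untreated d14 tumors by 1.61 ± 0.23 (adjusted p = 0.0053), the largest treatment difference among the 9 genes at d14, and by 1.72 from treated replicate 2 alone (adjusted p = 0.10). The treatment difference at d14 exceeded that at d10 by 2.43 ± 0.41 (adjusted p = 0.0038).

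Dcn and Lum encode decorin and lumican, small leucine-rich proteoglycans that bind collagen fibrils, and lie next to each other on chromosome 10 (97479609 to 97518143 and 97565128 to 97572703, both on the plus strand), 46984 bases apart. Dcn was at 117, 74.5 and 93.1 CPM at d6, at 122, 202, 130, 147 and 75.3 CPM in untreated d10 tumors and at 133, 56.8 and 143 CPM in untreated d14 tumors. Treated tumors had 64.0, 71.4 and 69.0 CPM at d10 and 360, 265 and 173 CPM at d14. The untreated groups overlapped, the treated d10 tumors were below all untreated d10 tumors, and the treated d14 tumors were above all untreated d14 tumors.

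Treated d14 tumors had more Dcn than untreated d14 tumors by 1.30 ± 0.37 on the log2 scale (adjusted p = 0.033, edgeR). This call depended on single tumors: without untreated d14 replicate 1 the value was 1.45 (adjusted p = 0.071), without untreated d14 replicate 2 it was 0.97 (adjusted p = 0.044, below the fold), without treated d14 replicate 1 it was 1.04 (adjusted p = 0.11) and without treated d14 replicate 2 it was 1.34 (adjusted p = 0.083). From treated replicate 2 alone it was 1.29 (adjusted p = 0.17). At d10 the treated tumors were lower by 0.99 ± 0.25, which did not pass the test (adjusted p = 0.21). It was called without untreated d10 replicate 5 (-1.14, adjusted p = 0.0293) and against untreated d10 replicates 1 to 3 (-1.14, adjusted p = 0.0016). With a replicate block in edgeR it was also called (-1.12, adjusted p = 0.00014), though the replicate numbers did not pair the tumors. The treatment difference at d14 exceeded that at d10 by 2.28 ± 0.48 (adjusted p = 0.0079), and this call was kept in all 23 alternatives (adjusted p up to 0.043).

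Lum was at 5.65, 3.43 and 5.99 CPM at d6, at 3.97, 4.72, 5.12, 6.37 and 1.73 CPM in untreated d10 tumors and at 2.46, 2.05 and 2.84 CPM in untreated d14 tumors. Treated tumors had 2.97, 1.91 and 2.07 CPM at d10 and 6.43, 6.06 and 4.33 CPM at d14. All untreated d14 tumors were below all d6 and treated d14 tumors. The log2 fold change was -1.02 ± 0.25 from d6 to d14 (adjusted p = 0.0086, edgeR), close to the fold for a call and short of it in 6 of 12 alternatives. It was 1.23 ± 0.21 between treated and untreated d14 tumors (adjusted p = 0.0077), with 1.34 from treated replicate 2 alone (adjusted p = 0.104), and the treatment difference at d14 exceeded that at d10 by 2.13 ± 0.48 (adjusted p = 0.010). With treated d14 replicate 2 alone that last value was 2.21 and not called (adjusted p = 0.0545).

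At d10 the log2 fold changes between treated and untreated tumors of the genes not yet given were -0.83 for Dpt (adjusted p = 0.297, edgeR, and called without untreated d10 replicate 5 at -1.002, adjusted p = 0.0457), -0.41 for Tagln (0.392), -0.36 for Fap (0.392), -0.25 for Pdgfrb (0.522) and -0.24 for Thy1 (0.428). For Lum it was -0.92 (0.337), and called with the replicate block (-1.004, adjusted p = 0.0066, edgeR). With Acta2, Pdgfra and Dcn these make 9 values below 0 of which none passed the test, and their median was -0.48 beside -0.01 for all genes tested.

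**Figure D3:**
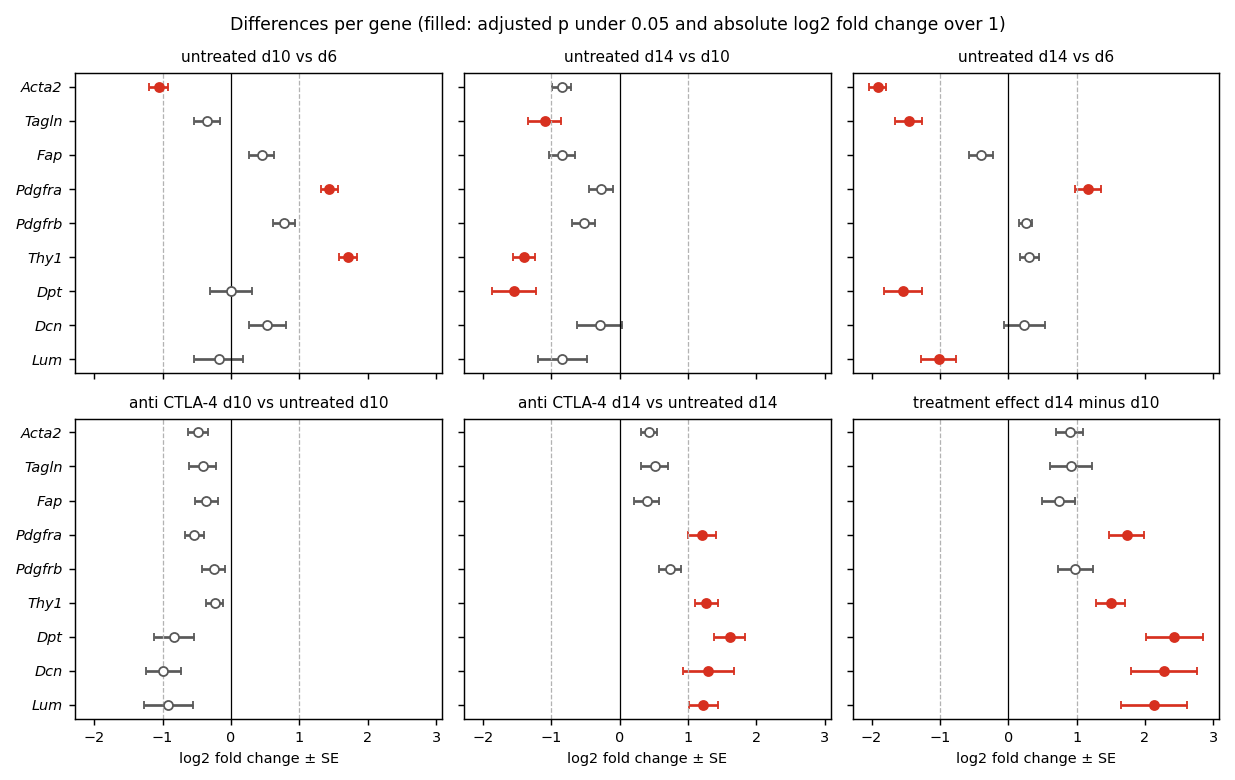
Log2 fold change ± SE of the 9 tested genes in 6 comparisons, with filled points for an adjusted p under 0.05 and an absolute log2 fold change over 1. Acta2 lies left of 0 in all 3 untreated panels, and all 9 genes lie left of 0 at d10 and right of 0 at d14 in the 2 treatment panels.

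Some tumors held the lowest or highest level of their group for several genes. Untreated d10 replicate 5 was the lowest of its group for 7 of the 9 tested genes, d6 replicate 2, treated d10 replicate 2 and treated d14 replicate 3 for 6 each, and untreated d14 replicate 2 for 5. Treated d14 replicate 2, the one with little pancreas acinar RNA, was the highest of its group for 6 of 9. Over the 17 libraries the pair of genes with the most alike levels was Dpt and Lum (Pearson r of log2 CPM = 0.871), followed by Acta2 and Tagln (r = 0.854) and by Pdgfra and Pdgfrb (r = 0.817). Acta2 and Pdgfra ran opposite (r = -0.548) over all libraries and together within groups (r = 0.450 of the deviations from group means). These values share libraries and depth and are given as a description.

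The genes most like each of the others over 17 libraries were Postn (r = 0.966), Adgre4 (0.952) and Mcur1 (0.951) for Acta2, and Ccl24 (0.953), Eid2 (0.952) and Tuba8 (0.939) for Tagln. For Pdgfra those given here are Igdcc4 (0.977) and Zfp532 (0.969), and for Pdgfrb they were Ephb2 (0.944), Ptk7 (0.940) and Cpz (0.934). Fap had the weakest match, with Sept6 (0.849), Gng11 (0.833) and Cryzl2 (0.833). Dpt was most like C6 (0.925), Plcl2 (0.913) and Aldh1a2 (0.913), Lum most like Sfrp4 (0.925), Ptx3 (0.908) and Col14a1 (0.907), and Dcn most like Lrrn4 (0.968), Nkain4 (0.957) and Gucy1a1 (0.953).

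Of 15 contractile genes other than Acta2 and Tagln, edgeR called 0 from d6 to d10, with 5 at an unadjusted p under 0.05 and 0 called by DESeq2. From d10 to d14 it called 2 lower, Des (desmin, the muscle intermediate filament) at -1.81 and Myh11 (the smooth muscle myosin heavy chain) at -1.11. From d6 to d14 it called 3 lower, Myh11 at -2.08, Des at -1.61 and Myl9 (a myosin light chain) at -1.09, where 19% of all genes were called. Between treated and untreated d14 tumors 3 of 15 were higher, Des at 1.48, Synpo2 at 1.23 and Myh11 at 1.004, with a median of 0.29 over the list. The summed level of the 15 genes was 1584 to 1655 CPM at d6 and 1687 to 1854 CPM in untreated d14 tumors. This sum did not follow most of the list, whose median log2 fold change from d6 to d14 was -0.45, beside 0.01 for all genes tested. Cald1 (means of 452 and 719 CPM) and Vcl (311 and 451 CPM) weighed heavily in it and were higher at d14. Of SRF and its cofactors, 3 of 4 genes were tested, edgeR and DESeq2 called 0 in any of the 7 comparisons, and 0 to 2 had an unadjusted p under 0.05.

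Of 11 fibroblast matrix genes, 2 were higher at d10 than at d6, Fbln1 at 1.11 and Fbln2 at 1.002, and Postn, which encodes periostin, was lower at -1.17. From d10 to d14, 2 of 11 were lower, Mfap4 at -1.09 and Loxl1 at -1.05, with 9 of 11 at an unadjusted p under 0.05 and a median of -0.66. At d14 Fbln2 was higher than at d6 (1.44) and Postn lower (-2.16). Of the 11, 5 were higher in treated than in untreated d14 tumors: Fbln1 at 1.48, Efemp1 at 1.41, Loxl1 at 1.35, and the collagen I genes Col1a2 at 1.15 and Col1a1 at 1.14. The median log2 fold change was 0.99 for this list and 1.21 for the 9 fibroblast genes, beside 0.00 for all genes tested. In the test of the treatment difference at d14 minus that at d10, 10 of 11 matrix genes were called higher, led by Efemp1 at 2.91 and Fbln1 at 2.03.

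Of 10 resident fibroblast genes, 6 were called higher than in untreated d14 tumors, led by Clec3b at 2.36 and Scara5 at 2.05, and 8 of 10 in the test of the difference between days. In the untreated tumors Pi16, a marker of adventitial fibroblasts, was lower at d10 than at d6 (-1.03), and Cd248 (endosialin) was lower at d14 than at d10 (-1.33). Of the 7 small leucine-rich proteoglycans other than Dcn and Lum, whose log2 fold changes reached down to -1.15 for Omd (not called), 2 were called higher in treated d14 tumors, Fmod (fibromodulin) at 2.25 and Ogn (osteoglycin), whose mean was 3.31 ± 0.925 CPM there (SD, n = 3). Both were low in untreated d14 tumors, at 0.120 ± 0.0757 and 0.838 ± 0.470 CPM (mean ± SD, n = 3). Of the 7 fibroblast genes of the mMCP-counter list, Pde3a at 1.28 and Cpxm1 at 1.21 were higher. In the untreated tumors Cpxm1 was higher at d10 than at d6 (1.22), and Ccl19, a chemokine, was lower at d14 than at d10 (-2.12) and at d6 (-2.32). Ccl19 was low throughout, at 0.71 to 0.82 CPM at d6, 0.30 to 1.16 CPM in untreated d10 tumors and 0.064 to 0.20 CPM in untreated d14 tumors. Pi16 and Cd248 were also lower at d14 than at d6 (-2.002 and -1.10).

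Against untreated d10 tumors, treated d14 tumors had more Ogn (1.25) and Clec3b (1.29). In the test of the treatment difference at d14 minus that at d10, the genes called from the shorter lists all had values above 0, which compare treatment differences and not levels. They were Des (2.30), Synpo2, Myh11 and Myl9 of the contractile genes, Ogn (3.29), Bgn and Prelp of the proteoglycans, and Ccl19 (2.51), Cpxm1 and Pde3a of the mMCP-counter list. At d10 alone, edgeR called 0 of 10 resident fibroblast genes between treated and untreated tumors, with 7 at an unadjusted p under 0.05, 3 called by DESeq2 and a median of -0.92.

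**Figure D4:**
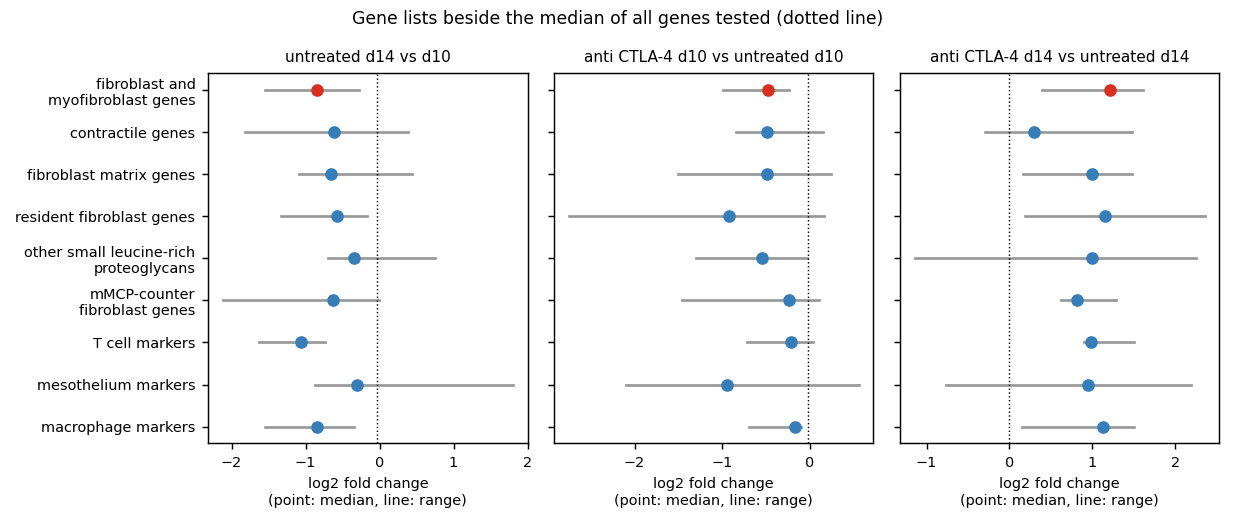
Median (points) and range (lines) of the log2 fold change of each gene list in 3 comparisons, with the median of all genes tested as a dotted line. In treated against untreated d14 tumors the fibroblast genes have a median of 1.21 and the contractile genes of 0.29.

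Markers of other cell types moved beside these genes, and their part in the results was not tested. Of 9 mesothelium markers, 2 were called higher in treated than in untreated d14 tumors, Lrrn4 at 2.19 and Wt1 at 1.54, while the summed level of the list, in tumors grown from a mesothelioma line, was 1888 to 2103 CPM in treated and 2774 to 2837 CPM in untreated d14 tumors. At d10 edgeR called 0 of 9 mesothelium markers between treated and untreated tumors, with 5 at an unadjusted p under 0.05. DESeq2 called 3 of them there, and the median was -0.94. In the treatment difference at d14 minus that at d10, 4 of 9 were called higher (Lrrn4, Upk3b, Upk1b and Wt1) and 0 lower. The mesothelium values went both ways in that test, from -0.96 to 3.71, with a median of 2.48. In the other comparisons Upk1b was lower at d10 and d14 than at d6, Msln was higher at d14 than at d6, and treated d14 tumors had more Muc16 and Lrrn4 and less Krt19 than untreated d10 tumors. Set against untreated d14 tumors, treated d14 tumors had 0 of 7 pericyte markers called by edgeR, with 5 at an unadjusted p under 0.05 and 0 called by DESeq2, and their sum was 71.1 to 86.8 CPM against 46.6 to 57.7 CPM. In the same comparison 0 of 5 endothelium markers were called, with 4 at an unadjusted p under 0.05 and 0 by DESeq2, and their sum was 140 to 169 CPM against 85.4 to 104 CPM. Of 7 macrophage markers 5 were called higher in treated than in untreated d14 tumors, Csf1r at 1.50, Cd68 at 1.21, C1qb, C1qa and Adgre1, with sums of 1457 to 1808 CPM against 677 to 938 CPM.

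Pericyte and endothelium markers were called in other comparisons: Cspg4 and Notch3 (pericytes) and Emcn (endothelium) were higher at d10 than at d6, Cspg4, Mcam, Emcn and Cdh5 were higher at d14 than at d6, Kdr was higher in treated d14 than in untreated d10 tumors, and Rgs5, Kcnj8 and Pecam1 were higher in the treatment difference at d14 minus that at d10. Of 7 macrophage markers, 3 were called lower in untreated d14 than untreated d10 tumors (C1qb, C1qa and Cd68), as were Thy1, Dpt and Tagln. The summed macrophage markers were at 1395 to 2216 CPM at d10 and 677 to 938 CPM at d14. Between d6 and d14 in untreated tumors, 4 of 7 macrophage markers were called lower (Adgre1, C1qb, Fcgr1 and C1qa). In the treatment difference at d14 minus that at d10, 5 of 7 were higher (C1qb, C1qa, Csf1r, Cd68 and Adgre1).

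The summed adipocyte markers were at 28.2 to 84.7 CPM at d6, 29.2 to 59.3 CPM in untreated and 17.6 to 19.3 CPM in treated d10 tumors, 14.5 to 23.9 CPM in untreated d14 tumors and 19.1 to 34.7 CPM in treated d14 tumors, and of 5 tested 4 were called lower at d14 than at d10 in untreated tumors (Cfd, Cidec, Adipoq and Plin1) and 1, Plin1, higher in treated than in untreated d14 tumors. At d10, where the fibroblast genes had values below 0, edgeR called 0 of 5 adipocyte markers between treated and untreated tumors, with all 5 at an unadjusted p under 0.05, 4 called by DESeq2 and a median of -1.48. In the test of the treatment difference at d14 minus that at d10, 5 of 5 were called higher (Cidec, Adipoq, Cfd, Plin1 and Fabp4). The 4 called lower at d14 than at d10 were also lower than at d6, and Cfd was lower in treated d14 than in untreated d10 tumors. Skeletal muscle markers summed to at most 2.22 CPM in any library, with Ckm called lower at d14 than at d10 and d6 and in treated d14 than in untreated d10 tumors, and Tnnt3 higher in treated than in untreated d14 tumors, and lymphatic endothelium markers to between 5.84 and 14.5 CPM, with Lyve1 called lower at d14 than at d6 (-1.47).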

How the data were processed

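The authors made libraries with the KAPA RNA HyperPrep kit, aligned reads to GRCm38 (mm10) with TopHat2 2.0.14 and used HTSeq with the Gencode vM21 annotation. Deposited were whole-number counts for each gene and library, without normalization. Libraries were run on a NextSeq500 or a NovaSeq6000, and the study removed genes with a batch effect between sequencing projects from its own analysis, which was not done here. Strand use in counting and the instrument and project of each library are not given in the sources used here. Levels are CPM with TMM factors over all 17 libraries, divided by exon length only where genes are compared. Differences were tested with edgeR 4.0.16 (R 4.3.3; filterByExpr, TMM, quasi-likelihood test, only the compared groups in each fit, Benjamini-Hochberg adjustment over all genes tested), with the study's thresholds of adjusted p under 0.05 and absolute log2 fold change over 1. The study itself used DESeq2, here (version 1.42.0) an alternative. Standard errors are the log2 fold change over the square root of F. The fits of the 6 comparisons between pairs of groups were tested on simulated counts, and that of the treatment difference at d14 minus that at d10 was not.

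The fibroblast genes and all lists were chosen with earlier results of these data known, so no list was tested. The lists are contractile genes, SRF and its cofactors (Mrtfa and Mrtfb matched by their current symbols), PDGF ligands, small leucine-rich proteoglycans, fibroblast matrix genes, resident fibroblast genes, the mMCP-counter fibroblast genes, and markers of T cells, mesothelium, pericytes, endothelium, lymphatic endothelium, macrophages, adipocytes, skeletal muscle and pancreas acinar cells. Named are all 10 genes, the 3 most like each (highest Pearson r of log2 CPM, prior count 2, among 15120 genes with an official symbol), genes overlapping them, and called list genes, all where 5 or fewer were called in a comparison and otherwise the 2 with the largest change in each direction, with a few more named beside a count. Of the 3 genes most like Pdgfra, 1 is not reported here. Replicates were compared pairwise (22 pairs) and none were duplicates. Promoter windows are from RefSeq (GRCm38.p6) and figures were drawn with matplotlib 3.10.9.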

Additional observations from a re-analysis of the deposited data

Results flagged for a closer look

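The difference between treated and untreated tumors was not the same at d14 and at d10 for 5 of the 9 tested genes, by edgeR's test of that difference in 1 fit of 4 groups. The treated minus untreated log2 fold change at d14 exceeded that at d10 by 2.28 for Dcn, 2.43 for Dpt, 1.73 for Pdgfra, 1.50 for Thy1 and 2.13 for Lum, the last of which was not called with treated d14 replicate 2 alone (2.21, adjusted p = 0.0545). The cause was not tested. No tumor stood apart from the others of the untreated d10 group by Dixon's criterion for any of the 9 genes, the only group of a size at which this was looked for.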

How the results depend on the processing

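Alternatives were DESeq2, library size without TMM, other count filters, all 5 groups in 1 fit, a replicate block, leaving out each tumor, and untreated d10 replicates 1 to 3 or 4 and 5 alone. Treated d14 replicate 2 alone was added after seeing the data. All 90 group means under DESeq2 size factors or library size stayed within 1 SD. Of 21 calls, 10 were kept in every alternative and 0 changed sign in any. Of 1017 alternative values for single genes, 943 kept sign and call, 25 lost and 25 gained a call and 24 changed sign, none of these called; the cause was not tested.

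The count of genes called between treated d14 and untreated d10 tumors (0) was 2 without TMM, 1 with untreated d10 replicates 4 and 5, and 0 to 1 when single tumors were left out. Between treated and untreated d10 tumors (0) it was 2 with the replicate block, 1 with untreated d10 replicates 1 to 3, and 0 to 2 when single tumors were left out. The share of all genes called is not given here for any of the alternatives. Between treated and untreated d14 tumors (5) it was 0 with treated replicate 2 alone and 3 to 5 when single tumors were left out. From d10 to d14 (3) it was 1 to 4, and for the treatment difference at d14 minus that at d10 (5) it was 5 to 7. There the replicate block gave 6, with Tagln at 1.1516. Pdgfrb was called in 9, Tagln in 4 and Acta2 in 1 of 23 alternatives. That 1 alternative for Acta2 was treated d14 replicate 2 alone, at 1.08. With the block Dcn was -1.1175 and Lum -1.0036 in treated against untreated d10 tumors. The replicate numbers did not pair the tumors (30 same-numbered pairs, r of -0.265 to 0.141, 3 over 0.1).

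Changes of sign were as follows. For Dpt at d10 against d6 these were -0.0097 (DESeq2), -0.0082 (at least 10 counts), -0.0171 (all groups), -0.0803 (d10 replicates 4 and 5) and -0.212 to 0.2114 without single tumors. For Dpt in treated d14 against untreated d10 tumors they were 0.0041 (DESeq2), 0.1394 (without TMM), 0.0202 (at least 1 count), 0.0325 (at least 10 counts), 0.0362 (all groups), 0.0866 (d10 replicates 4 and 5), 0.0962 (treated replicate 2 alone) and -0.1712 to 0.1554 without single tumors. In that comparison Thy1 was 0.0089 with d10 replicates 4 and 5, and Pdgfrb -0.0457 to 0.2617 without single tumors. Lum at d10 against d6 was -0.3946 to 0.0245, Dcn at d14 against d10 -0.5072 to 0.0183, and Tagln in treated against untreated d10 tumors (-0.41) was 0.0082 with d10 replicates 4 and 5. Pdpn stayed under the floor of 3 counts in every library, and the cause was not tested.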
